A study of Mus musculus with 2 samples.

Results

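A set of 50 DNA replication machinery genes was described across 2 single-cell libraries of mouse prostate tumours. They were chosen by symbol from the 55357 features that both matrices list, and all 50 of them were found: 11 act in origin licensing, 28 in the helicase and the fork, 5 in nucleotide supply and 6 in new chromatin and protein turnover. The tumours came from the murine prostate cancer line RM-1, grafted under the skin of C57BL/6 mice. One library was made from tumours treated with RP-6306, a small-molecule inhibitor of the kinase PKMYT1, and the other from tumours treated with vehicle. Tumours of both arms were taken 10 days after treatment, and the labels give the genotype of both as WT. The labels state neither the dose nor, clearly, the number of mice behind a library. RM-1 is a single transplanted line, so the values describe that line under the skin and not a tumour that arose in the prostate.

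Replication begins when the origin recognition complex, Cdc6 and Cdt1 load rings of MCM proteins onto DNA in G1, which licenses the origin. In S phase, Cdc45 and the GINS complex join MCM to form the active helicase, DNA polymerase alpha and primase start each strand, and polymerases delta and epsilon extend it with the clamp PCNA and its loader RFC. Ribonucleotide reductase, thymidylate synthase and related enzymes supply the nucleotides, chromatin assembly factors restore nucleosomes behind the fork, and Uhrf1 brings in Dnmt1 to restore DNA methylation. Many of these genes are transcribed under E2F factors as cells leave G1, which makes their RNA a common sign of cycling cells. PKMYT1 phosphorylates CDK1, which drives entry into mitosis, and so holds it inactive.

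The RP-6306 library held 10512 barcodes with 106465655 unique molecular identifiers (UMIs, each a counted transcript molecule), and the vehicle library 9686 barcodes with 100815022 UMIs. Tumour cells carried at least 3 UMIs of the keratins Krt8 and Krt18 and at most 1 UMI of Ptprc, Lyz2, C1qa and Fcer1g, which left 7167 RP-6306 cells and 6894 vehicle cells at median depths of 10120 and 10170.5 UMIs. Macrophages carried at least 3 UMIs of Lyz2 with further macrophage genes, which left 252 RP-6306 and 236 vehicle cells at 4574 and 5079 UMIs. The gate gene Krt8 itself differed, at 787 CPM in RP-6306 and 1044 CPM in vehicle tumour cells, and Krt18 stood at 625 CPM in RP-6306 and 602 CPM in vehicle. Tumour markers outside the gate differed likewise, Krt19 at 165 CPM in RP-6306 and 227 CPM in vehicle and Barx2 at 47.7 CPM in RP-6306 and 77.96 CPM in vehicle tumour cells, while Sox9 stood at 127 CPM in RP-6306 and 127 CPM in vehicle. The part of this marker difference in the results on replication genes was not tested. Krt7, Cldn4 and Cldn7 were near 0. The 5 fibroblast markers summed to 218 CPM in RP-6306 and 203 CPM in vehicle tumour cells, mostly from Col1a1 at 184 CPM in RP-6306 and 166 CPM in vehicle. The 4 endothelial markers summed to 58.0 CPM in RP-6306 and 45.9 CPM in vehicle tumour cells. Most of that was Cdh5, at 55.5 CPM in RP-6306 and 43.8 CPM in vehicle, and the other endothelial markers were low. The 9 macrophage markers summed to 34.2 CPM in RP-6306 and 36.3 CPM in vehicle tumour cells, against 18696 CPM and 18392 CPM in the macrophages of the same libraries. Levels are given as CPM, a gene's counts per 1000000 UMIs of a class in a library. Ratios are RP-6306 over vehicle, and the intervals in parentheses are exact 95% intervals that cover counting error only. With 1 library per arm there is no replicate check and no test, so a gene called higher or lower differs between 2 libraries and not necessarily between treatments. In a class sum, more cells with the RNA and more RNA per cell cannot be told apart.

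In tumour cells the machinery as a whole stood at nearly the same level in both libraries, while single genes differed in both directions. Cdc6, Dtl, Mcm10, Fen1 and Uhrf1 were higher in RP-6306 tumour cells, by 0.22 to 0.40 on the log2 scale, and Pole, Tk1 and Lig1 were lower, with log2 ratios of -0.39 to -0.31. The 50 genes summed to 2775 CPM in RP-6306 and 2794 CPM in vehicle tumour cells, a ratio of 0.993 (0.987 to 0.999). That direction rests on the scaling, since the ratio was 1.005 with TMM scaling and 1.02 with median-of-ratios scaling, and on Dut, without which it was 1.006 (0.999 to 1.012). All 50 genes were measured, meaning at least 100 UMIs over both libraries. By log2 of CPM + 1, 25 were higher and 25 lower, beside 44.4% higher and 55.6% lower among all 13671 measured genes. With median-of-ratios scaling 34 were higher and 16 lower, beside 53.2% higher and 46.2% lower among all measured genes, since that scaling moves every gene up alike. Past a log2 difference of 0.2, a ratio of about 1.15, there were 5 higher and 3 lower genes, beside 7.86% and 11.0% of all measured genes. The median log2 ratio was -0.00025 over the 50 genes and -0.02 over all measured genes. The counting interval of the ratio lay above 1 for 15 genes, below 1 for 13 and included 1 for 22, beside 17.8% above and 27.0% below among all measured genes.

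**Figure D1:**
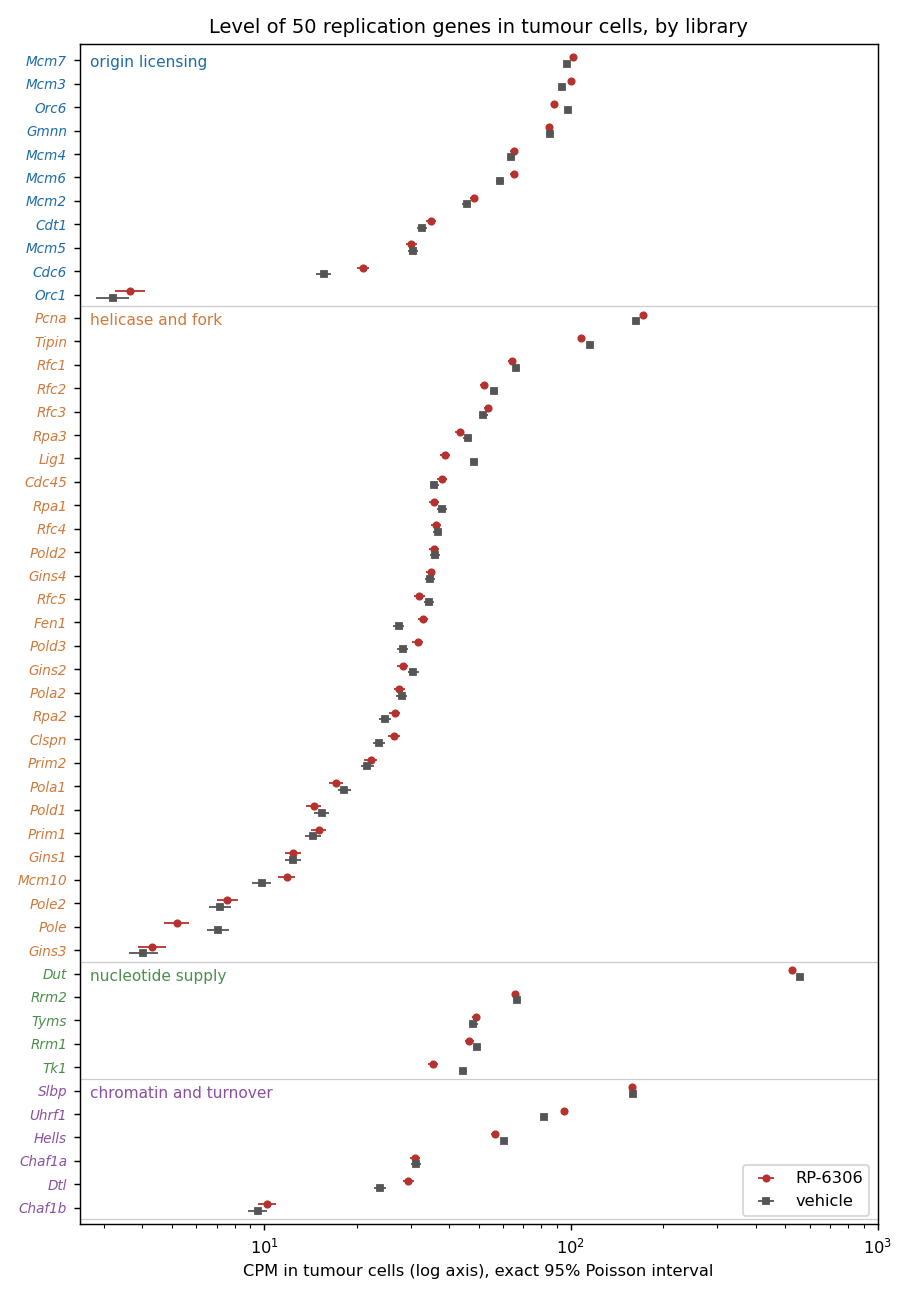
Level of each of the 50 replication genes in tumour cells, in CPM on a log axis, with circles for the RP-6306 library, squares for the vehicle library and bars for the exact 95% Poisson interval. Dut lies far above the others at 527 and 558 CPM, and in each role group the order of the genes is nearly the same in both libraries.

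The origin licensing genes of the set were mostly higher in RP-6306 tumour cells, while further licensing genes, given below, split evenly. Of the 11, 8 were higher and 3 lower, beside 44.4% and 55.6% of all measured genes, with a median log2 ratio of 0.074. Their sum was 642 CPM in RP-6306 and 624 CPM in vehicle tumour cells, a ratio of 1.03 (1.02 to 1.04). Cdc6 (chr11:98907801-98923940 on GRCm38, plus strand), an ATPase that loads MCM rings and is made anew in each cycle, had 21 CPM (20.02 to 22.02) in RP-6306 tumour cells and 15.7 CPM (14.8 to 16.5) in vehicle tumour cells. It had the highest ratio of the 50 genes, at 1.34 (1.25 to 1.44), a log2 ratio of 0.40. Mcm7 and Mcm3, subunits of the MCM ring, were the most abundant licensing genes by UMIs of both libraries together, while in vehicle alone Orc6 was highest. Mcm7 had 102 CPM (99.4 to 104) in RP-6306 tumour cells and 97.02 CPM (94.9 to 99.2) in vehicle tumour cells, a ratio of 1.05 (1.01 to 1.08). Mcm3 had 99.8 CPM (97.6 to 102) in RP-6306 tumour cells and 93.2 CPM (91.1 to 95.4) in vehicle tumour cells, a ratio of 1.07 (1.04 to 1.10). Both were higher in the RP-6306 library beyond counting error and below the 0.2 limit. Among the other MCM subunits, Mcm6 was also higher, with 65.1 CPM in RP-6306 and 58.6 CPM in vehicle and a ratio of 1.11 (1.07 to 1.16). Mcm2 had a ratio of 1.05 (1.01 to 1.10), and the intervals of Mcm4 and Mcm5 included 1. Cdt1, the partner of Cdc6 in loading, had a ratio of 1.07 (1.02 to 1.13), and Gmnn, the geminin that blocks Cdt1 after licensing, had 84.6 CPM in RP-6306 and 85.2 CPM in vehicle, a ratio of 0.993 (0.960 to 1.03). Orc6, a subunit of the origin recognition complex, was lower, with 88.2 CPM in RP-6306 and 98.1 CPM in vehicle and a ratio of 0.899 (0.871 to 0.929). Its large subunit Orc1, the member with the fewest UMIs, had 3.65 CPM in RP-6306 and 3.21 CPM in vehicle, a ratio of 1.14 (0.961 to 1.35) whose interval includes 1.

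Of 9 licensing promoters in the RefSeq table (build GRCm38.p6, 250 bases before to 50 after each start site), 6 hold an E2F-type motif, TTTNGCGC on either strand. Sequences are shown for members whose motif begins before the start site. These are Mcm5, Mcm6 and Orc1 of licensing, Rfc3 and Pola1 of helicase and fork, and Dtl of chromatin and turnover. Over all members the table has 41 promoters, of which 11 hold the motif, 26.8%, against 1.38% of all 27025 promoters. By role it stood in 4 of 21 promoters of helicase and fork genes, in 0 of 5 of nucleotide supply genes and in 1 of 6 of chromatin and turnover genes. The capitals below mark the motif, and overlapping matches on opposite strands where the capitals run to 12 bases.
Mcm5, chr8:75109347-75109376, plus strand: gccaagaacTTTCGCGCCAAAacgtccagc
Mcm6, chr1:128359795-128359824, minus strand: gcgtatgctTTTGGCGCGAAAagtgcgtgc
Mcm6, chr1:128359734-128359763, minus strand: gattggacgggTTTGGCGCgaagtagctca
Orc1, chr4:108579416-108579445, plus strand: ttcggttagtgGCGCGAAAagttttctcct
Dtl, chr1:191575534-191575563, minus strand: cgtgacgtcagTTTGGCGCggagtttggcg
Rfc3, chr5:151651200-151651229, minus strand: acgtcgcacgcTTTCGCGCtcgcgggaaaa
Pola1, chrX:93632275-93632304, minus strand: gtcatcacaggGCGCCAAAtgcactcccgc
In Mcm5 and Mcm6 the motif reads on both strands at once, and Mcm6 holds a further match nearer to its start site. The 250 bases before the Mcm6 start site show how both matches lie in 1 promoter.
Mcm6, chr1:128359706-128359955, minus strand: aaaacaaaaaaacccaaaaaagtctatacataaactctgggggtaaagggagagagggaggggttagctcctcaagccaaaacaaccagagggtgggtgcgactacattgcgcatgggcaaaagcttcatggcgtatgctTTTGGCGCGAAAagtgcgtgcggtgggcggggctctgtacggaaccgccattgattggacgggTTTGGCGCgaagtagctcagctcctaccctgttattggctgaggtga
Cdt1, Mcm3, Mcm7, Clspn and Pole2 hold the motif after their start sites. The 11 genes with the motif had a median log2 ratio of 0.096 between the libraries and a range of -0.085 to 0.30. The 30 without it had a median of -0.012 and a range of -0.32 to 0.40, so the ranges overlapped. Cdc6, with the highest ratio, has no match in its window. That window, chr11:98907901-98908200, starts inside the annotated gene, as do those of Dut, chr2:125247265-125247564, and Mcm7, chr5:138171834-138172133. The bases before those annotated gene starts were thus not searched, and a motif there would be missed. The windows of Fen1, Lig1, Rpa1 and Mcm5 stop before the annotated gene start, so their start sites differ from the annotation too. CCAAT, a box often found before cell-cycle genes, stood in 63.4% of member promoters against 37.9% of all promoters, and TTTGAA, the core of an element found before mitotic genes, in 9.76% against 18.1%. A match describes the letters and does not show binding. Only TTTNGCGC was searched as an E2F-type motif, so a promoter without a match may hold another form of it.

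Helicase and fork genes split about evenly between the directions, with the largest differences in Pole, Lig1, Fen1 and Mcm10. Of the 28, 13 were higher and 15 lower in RP-6306 tumour cells, beside 44.4% and 55.6% of all measured genes. The median log2 ratio was -0.0059 and the sum was 1028 CPM in RP-6306 and 1037 CPM in vehicle, a ratio of 0.992 (0.982 to 1.001). Fen1, the nuclease that trims flaps of Okazaki fragments (chr19:10199132-10204169, minus strand), had 32.9 CPM (31.6 to 34.1) in RP-6306 tumour cells and 27.4 CPM (26.3 to 28.6) in vehicle tumour cells. Its ratio was 1.20 (1.13 to 1.27). Lig1, the ligase that then joins those fragments (chr7:13277283-13311433, plus strand), had 38.8 CPM (37.5 to 40.2) in RP-6306 tumour cells and 48.3 CPM (46.8 to 49.9) in vehicle tumour cells. Its ratio was 0.803 (0.766 to 0.842), so these enzymes of 1 process lay on opposite sides. Pole, the catalytic subunit of the leading-strand polymerase epsilon (chr5:110286306-110337474, plus strand), had 5.17 CPM (4.69 to 5.69) in RP-6306 tumour cells and 7.06 CPM (6.49 to 7.67) in vehicle tumour cells. At 0.732 (0.644 to 0.832) it had the lowest ratio of the 50 genes, on few UMIs, 422 in RP-6306 and 562 in vehicle. Its partner subunit Pole2 had a ratio of 1.06 (0.944 to 1.19).

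Mcm10, which helps to switch on the loaded helicase (chr2:4989714-5012791, minus strand), had 11.9 CPM (11.1 to 12.6) in RP-6306 tumour cells and 9.80 CPM (9.13 to 10.5) in vehicle tumour cells. The ratio of Mcm10 was 1.21 (1.10 to 1.33), higher in the RP-6306 library. Of the other helicase genes, Cdc45 was higher at 1.06 (1.01 to 1.11) and Gins2 lower at 0.924 (0.872 to 0.978), and the intervals of Gins1, Gins3 and Gins4 included 1. Pcna, the sliding clamp, was the most abundant fork gene, at 172 CPM (169 to 175) in RP-6306 tumour cells and 164 CPM (161 to 166) in vehicle tumour cells, a ratio of 1.05 (1.03 to 1.08). Its loaders differed the other way or not beyond counting error: Rfc2 and Rfc5 were lower at 0.924 (0.885 to 0.963) and 0.932 (0.883 to 0.984), and the intervals of Rfc1, Rfc3 and Rfc4 included 1. Tipin, which steadies forks with Timeless, had 108 CPM (106 to 110.2) in RP-6306 tumour cells and 116 CPM (113 to 118) in vehicle tumour cells, a ratio of 0.934 (0.907 to 0.962). Clspn, the claspin that links stalled forks to the checkpoint kinase Chk1, had 26.5 CPM in RP-6306 and 23.7 CPM in vehicle, a higher level at a ratio of 1.12 (1.05 to 1.19). Of the polymerase delta genes, Pold3 was higher at 31.6 CPM in RP-6306 and 28.2 CPM in vehicle, a ratio of 1.12 (1.06 to 1.19), and the intervals of Pold1 and Pold2 included 1, as did those of the alpha and primase genes Pola1, Pola2, Prim1 and Prim2. In the single-strand binding complex RPA, Rpa2 was higher at 1.08 (1.01 to 1.15), and Rpa1 and Rpa3 were lower at 0.940 (0.893 to 0.990) and 0.941 (0.899 to 0.986). The annotation lists Tmem258 over Fen1 and Zswim9 over Lig1 on the opposite strand, and pseudogenes of Pcna and Tyms. Whether the counting used strand, and how it shared reads with such copies, are not given in the sources used.

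Nucleotide supply was the role group whose sum was lower in RP-6306 tumour cells beyond counting error, at 724 CPM in RP-6306 and 767 CPM in vehicle, a ratio of 0.944 (0.933 to 0.955). Of its 5 genes, 1 was higher and 4 were lower, beside 44.4% and 55.6% of all measured genes, with a median log2 ratio of -0.080. Dut, the dUTPase that keeps uracil out of DNA and feeds dTMP synthesis, had 527 CPM (522 to 532) in RP-6306 tumour cells and 558 CPM (553 to 564) in vehicle tumour cells, a ratio of 0.944 (0.932 to 0.957). Dut alone gave 19% of the members' UMIs in RP-6306 and 19.99% in vehicle tumour cells, and without it the group's ratio was 0.943 (0.923 to 0.964). Tk1, the thymidine kinase of the salvage route (chr11:117815526-117826092, minus strand, with Afmid on the opposite strand), had 35.4 CPM (34.1 to 36.7) in RP-6306 tumour cells and 44.4 CPM (42.98 to 45.9) in vehicle tumour cells. The ratio of Tk1 was 0.797 (0.759 to 0.838), the lowest of the group. Rrm2, the subunit of ribonucleotide reductase that is made in S phase, had 65.9 CPM (64.1 to 67.7) in RP-6306 tumour cells and 66.8 CPM (65.1 to 68.7) in vehicle tumour cells, a ratio of 0.986 (0.949 to 1.02). Its partner Rrm1 was lower at 46.6 CPM in RP-6306 and 49.3 CPM in vehicle, a ratio of 0.945 (0.904 to 0.989), and Tyms, the thymidylate synthase, had 48.9 CPM in RP-6306 and 48.1 CPM in vehicle, a ratio of 1.02 (0.974 to 1.06). The interval of the ratio thus included 1 for Rrm2 and Tyms and lay below it for Dut, Rrm1 and Tk1.

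Of the 6 chromatin and turnover genes, 3 were higher and 3 lower, beside 44.4% and 55.6% of all measured genes. Their sum was 380.4 CPM in RP-6306 and 366 CPM in vehicle tumour cells, a ratio of 1.04 (1.02 to 1.06). Dtl, the receptor through which a ubiquitin ligase removes Cdt1 from PCNA-bound DNA (chr1:191537356-191575544, minus strand), had 29.5 CPM (28.3 to 30.7) in RP-6306 tumour cells and 23.8 CPM (22.7 to 24.9) in vehicle tumour cells. Its ratio of 1.24 (1.17 to 1.32) was the second highest of the 50 genes. Uhrf1, which reads hemimethylated DNA and brings in the methyltransferase Dnmt1 (chr17:56303321-56323486, plus strand), had 94.7 CPM (92.6 to 96.9) in RP-6306 tumour cells and 81.5 CPM (79.5 to 83.5) in vehicle tumour cells, a ratio of 1.16 (1.12 to 1.20). Its log2 ratio was 0.22, and 0.1998 with the mean of per-cell CPM, just under the limit. Slbp, which binds the stem loop of histone mRNAs, had 158 CPM (156 to 161) in RP-6306 tumour cells and 159 CPM (157 to 162) in vehicle tumour cells, a ratio of 0.994 (0.970 to 1.02), so it did not differ beyond counting error. Hells, a remodeller that helps DNA methylation, was lower at 56.5 CPM in RP-6306 and 60.7 CPM in vehicle, a ratio of 0.931 (0.894 to 0.970), and the intervals of Chaf1a and Chaf1b, subunits of chromatin assembly factor CAF-1, included 1.

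Shares of cells gave a further view of single genes. After thinning to 2000 UMIs, Cdc6 had at least 1 UMI in 3.74% of RP-6306 and 2.63% of vehicle tumour cells, and Lig1 in 6.26% of RP-6306 and 8.24% of vehicle tumour cells. The interval of the difference lay above 0 for 6 genes, Cdc6, Mcm3, Mcm10, Pold3, Fen1 and Uhrf1, and below 0 for 6, Gins4, Rfc1, Lig1, Rrm1, Tk1 and Slbp. It included 0 for the other 38. Among all measured genes it lay above 0 for 7.64% and below 0 for 11.7%. For Gins4, Rfc1 and Slbp the share was lower in RP-6306 cells while the interval of the CPM ratio included 1. No cell class in these libraries is known to lack these genes, so the share that free RNA gives was not measured.

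**Figure D2:**
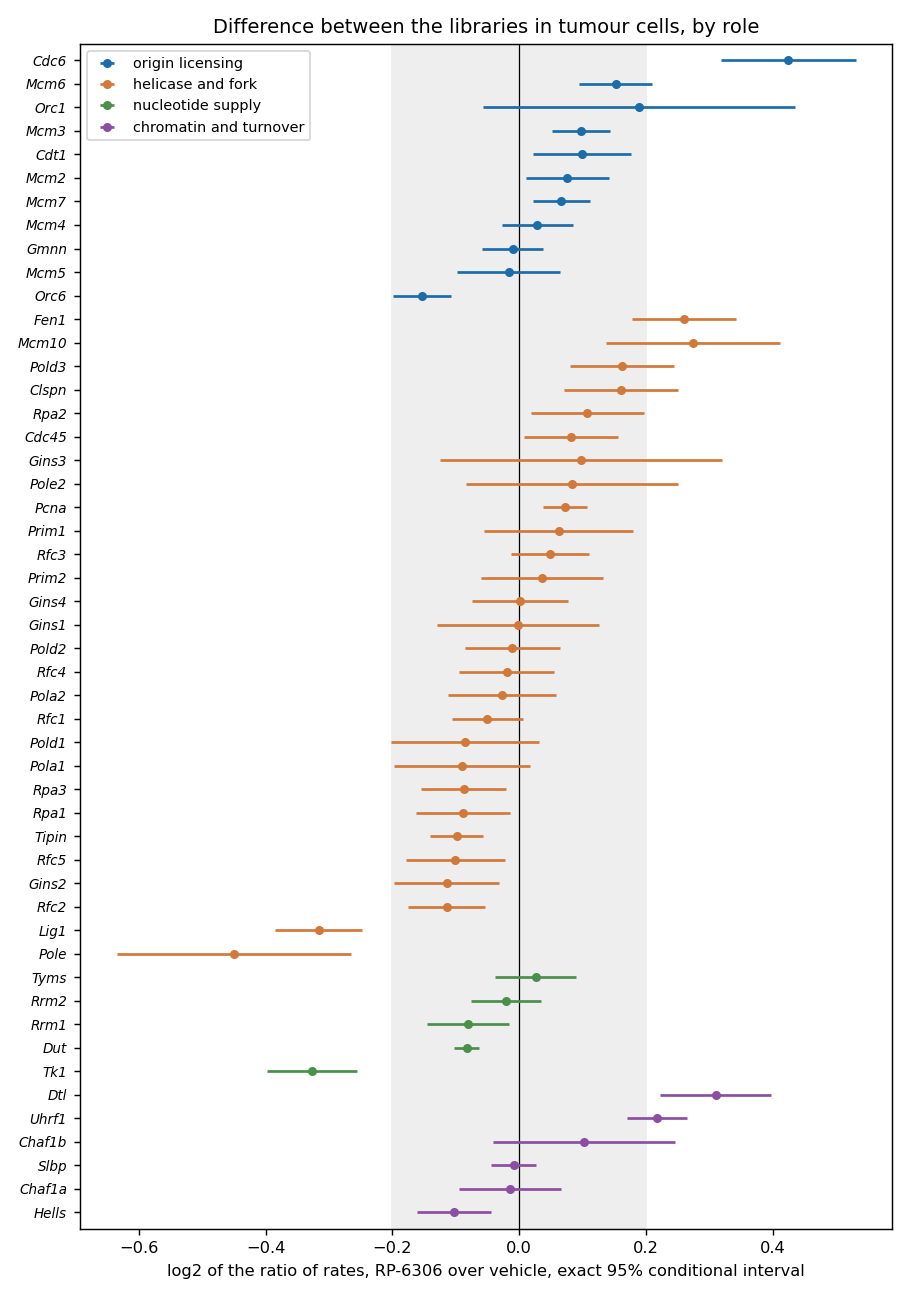
Difference between the libraries for each replication gene in tumour cells, as log2 of the ratio of rates, RP-6306 over vehicle, with exact 95% intervals and points coloured by role. The grey band spans -0.2 to 0.2; 5 genes lie to its right, with Cdc6 farthest, and 3 to its left, with Pole farthest.

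Other genes of the pathway also lay in both directions. Of 46 further replication genes, 22 were higher and 24 lower, beside 44.4% higher and 55.6% lower among all measured genes. In each direction 2 passed 0.2, beside 7.86% higher and 11.0% lower past 0.2 among all measured genes. The sums gave a ratio of 0.982 (0.976 to 0.988). Dck and Dctd, enzymes of deoxynucleotide salvage and balance, were highest at log2 ratios of 0.30 and 0.21, followed by Timeless at 0.19. Pold4, the small subunit of polymerase delta, was lowest at -0.33, with 102 CPM in RP-6306 and 128 CPM in vehicle tumour cells. Of the 46, 12 act in licensing and firing, and 6 of these were higher and 6 lower, beside the same shares of all measured genes. Their median log2 ratio was -0.015 and their sums gave a ratio of 1.01 (0.990 to 1.03). The interval of the ratio included 1 for 11 of these 12, so the lean of the 11 licensing members was not seen in them. Of 12 E2F and G1/S genes, 7 were higher and 5 lower, beside the same 44.4% and 55.6% of all measured genes. E2f3, a transcription factor of the family, and Ccne2, a cyclin that partners Cdk2 at S-phase entry, were highest at log2 ratios of 0.23 and 0.23. The mitotic genes differed in 1 direction. All 22 were lower in RP-6306 tumour cells, their median log2 ratio was -0.29 and their sum was 1893 CPM in RP-6306 and 2311 CPM in vehicle, a ratio of 0.819 (0.814 to 0.825). Plk1, Nusap1 and Prc1, which act at the spindle, were lowest at -0.46, -0.44 and -0.41. This list shares no gene with the members, and its level differs between the libraries, so replication genes were next read among tumour cells of like mitotic level.

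Cells rich in replication RNA were about equally common in both libraries, but in the RP-6306 library more of them were not also rich in mitotic RNA. After each tumour cell was thinned to 2000 UMIs, it was called rich when its replication UMIs were above 7, the 80th percentile over both libraries. Rich cells made up 19.8% (18.8 to 20.7) of 7108 RP-6306 cells and 19.9% (18.97 to 20.9) of 6857 vehicle cells, and 59 and 37 shallower cells were left out. The difference was -0.154 percentage points with an interval of -1.49 to 1.18. This class is a range of a score and not a cell type, since 666 RP-6306 and 577 vehicle cells held 7 or 8 replication UMIs. Cells were also split by mitotic UMIs at the same percentile, a cut of 5 UMIs. Those not rich in mitotic RNA can thus hold up to 5 mitotic UMIs and are not free of it. Cells rich in replication but not in mitotic RNA made up 10.7% of RP-6306 and 8.98% of vehicle tumour cells. The difference was 1.69 percentage points (0.697 to 2.69). Cells rich in both made up 9.07% of RP-6306 and 10.9% of vehicle tumour cells, a difference of -1.85 percentage points (-2.86 to -0.844). Cells rich in mitotic RNA alone made up 8.95% of RP-6306 and 9.92% of vehicle tumour cells, a difference of -0.969 percentage points (-1.95 to 0.0102). The mitotic list that makes the split is itself lower in the RP-6306 library, and its part in these shares was not tested.

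Tumour cells were then split into 4 bins by mitotic UMIs out of 2000: 0, 1, 2 to 3, and 4 or more. Below 4 mitotic UMIs most replication genes had more RNA in RP-6306 than in vehicle cells, and at 4 or more they did not. The summed level in the 4 bins was 1831, 2233, 3527 and 4306 CPM in RP-6306 cells and 1687, 1975, 3267 and 4438 CPM in vehicle cells, so it was highest in the most mitotic cells of both libraries. The ratios were 1.09, 1.13, 1.08 and 0.970. In the order of the bins, 42, 41, 39 and 21 of the 50 genes were higher in RP-6306 cells, beside 45.2%, 46.3%, 47.7% and 46.9% of all measured genes. The median log2 ratio of the members was 0.14, 0.19, 0.13 and -0.026, and that of all genes lay between -0.02 and -0.01. Counting intervals lay above 1 for 23, 25, 14 and 7 genes and below 1 for 2, 0, 1 and 12 genes. Among all measured genes the shares above 1 were 13.6%, 9.51%, 7.01% and 12.5%, and those below 1 were 19.7%, 13.0%, 8.28% and 16.4%. The bins held 51.2%, 18.9%, 8.46% and 21.5% of the RP-6306 cells and 45.95%, 19.8%, 9.74% and 24.5% of the vehicle cells.

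Licensing genes had ratios of 1.14, 1.18, 1.10 and 0.983 over the bins, and helicase and fork genes 1.06, 1.12, 1.08 and 0.975. Nucleotide supply genes, lower over all cells, had 1.07, 1.07, 1.01 and 0.927, and chromatin and turnover genes 1.08, 1.19, 1.19 and 1.03. Cdc6, Fen1, Dtl and Uhrf1 were higher in every bin with the interval above 1. Over the bins Cdc6 had 13.7, 19.2, 38.9 and 28.02 CPM in RP-6306 and 10.3, 12.5, 26.4 and 20.7 CPM in vehicle cells, so it peaked in the third bin of both. Clspn had 7.09, 16.5, 45.5 and 56.3 CPM in RP-6306 and 4.71, 7.63, 30.7 and 53.4 CPM in vehicle cells, with ratios of 1.51, 2.16, 1.48 and 1.05. Tk1 had ratios of 1.01, 0.938, 0.980 and 0.820, with the interval below 1 in the last bin alone. Lig1 had 0.808, 0.926, 0.875 and 0.833, below 1 in each bin, with the interval below 1 in the first and the last. Of the 50 genes, 44 in RP-6306 and 47 in vehicle cells peaked in the most mitotic bin, and 47 peaked in the same bin in both. Among all 13671 measured genes, 34.3% in RP-6306 and 33.4% in vehicle cells peaked in that bin, and 51.9% peaked in the same bin in both. From the least to the most mitotic bin, Mcm10 was 11.8-fold higher in RP-6306 and 14.6-fold in vehicle, and Rrm2 11.1-fold and 12.2-fold. The clamp loader subunit Rfc1 was 1.41-fold higher in RP-6306 and 1.39-fold in vehicle, and Mcm6 1.23-fold and 1.48-fold, so the genes differ widely in how far their level moves with the mitotic level.

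The pattern moved with how cells were matched. Within the bins the mitotic level was 158, 367, 1086 and 5647 CPM in RP-6306 and 184, 371, 1030 and 6309 CPM in vehicle cells. When each library was cut into 4 equal groups by its own mitotic ranks, an alternative chosen after seeing the data, the ratios of the summed members were 1.08, 1.08, 0.931 and 0.976. In the lower 2 groups the summed ratio was above 1, as in the low bins, and in the third it was below 1. In those groups the mitotic level was 39.4, 173, 437 and 5203 CPM in RP-6306 and 59.9, 211, 642 and 6287 CPM in vehicle cells, lower in RP-6306 in each group. The part of the mitotic difference in the replication ratios was not tested.

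**Figure D3:**
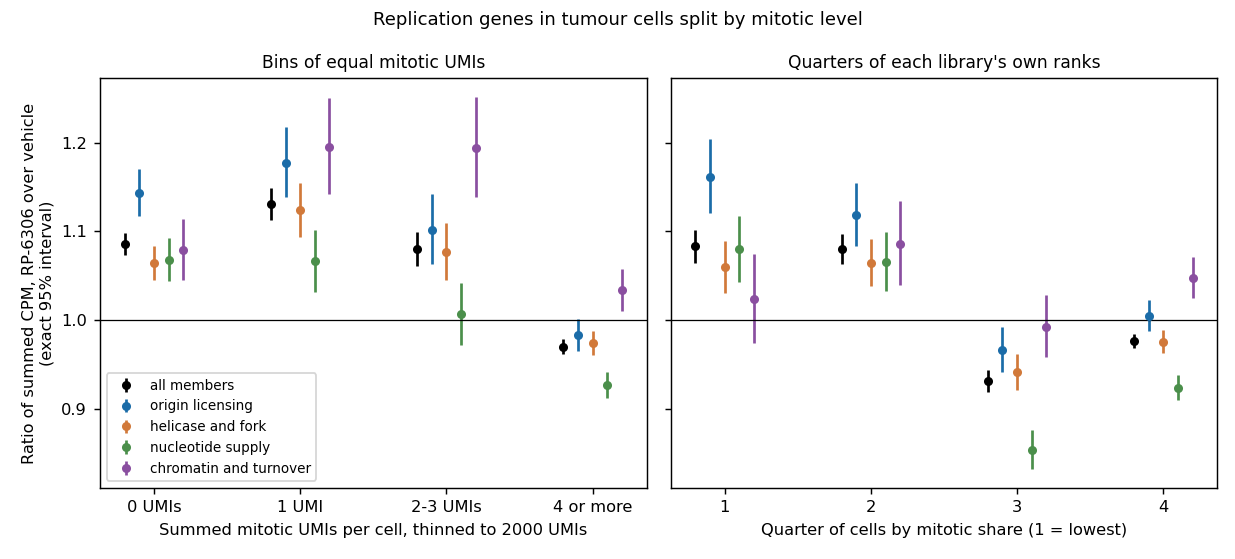
Ratio of the summed CPM of all replication genes and of each role group, RP-6306 over vehicle, in tumour cells split by mitotic level, with exact 95% intervals. On the left, bins of mitotic UMIs after thinning to 2000 UMIs, the members lie above 1 in the first 3 bins and below 1 in the last; on the right, 4 equal groups by each library's own mitotic ranks, they lie above 1 only in the lower 2.

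The 50 genes were also read for how closely each followed the others among tumour cells. For each gene, cells were called rich by the thinned UMIs of the other 49, at the 80th percentile, and the gene's CPM in rich cells was divided by its CPM in the remaining cells. The folds of the members ran from 1.604 to 6.72 in RP-6306 and from 1.68 to 7.93 in vehicle. For all measured genes, cells were called rich by the sum of all 50, and the median fold was 0.994 in RP-6306 and 0.991 in vehicle. The median fold of the members was 2.62 in RP-6306 and 2.88 in vehicle. Clspn had the steepest fold in RP-6306, 6.72 (6.13 to 7.37) in RP-6306 and 7.74 (6.99 to 8.57) in vehicle. Rrm2 followed at 6.67 (6.29 to 7.07) in RP-6306 and 7.16 (6.75 to 7.59) in vehicle, and Chaf1b at 6.19 (5.35 to 7.18) in RP-6306 and 6.49 (5.55 to 7.59) in vehicle. Outside the rich cells Clspn stood at 10.95 CPM in RP-6306 and 8.85 CPM in vehicle. Mcm10 differed between the libraries, at 5.02 (4.40 to 5.73) in RP-6306 and 7.93 (6.76 to 9.33) in vehicle, as its level outside the rich cells was 5.93 CPM in RP-6306 and 3.59 CPM in vehicle, while inside them it was 29.8 CPM and 28.5 CPM. At the shallow end, Rfc1 had 1.75 (1.66 to 1.86) in RP-6306 and 1.68 (1.59 to 1.78) in vehicle, and Pola2 1.604 (1.47 to 1.75) in RP-6306 and 1.87 (1.72 to 2.04) in vehicle. By role the median fold in RP-6306 and in vehicle was 2.48 and 2.87 for licensing, 2.47 and 2.57 for helicase and fork, 4.09 and 3.92 for nucleotide supply, and 3.78 and 3.94 for chromatin and turnover. Cells rich by the sum of all 50 were deeper, with median UMIs of 13030 against 9437 in the remaining cells of RP-6306 and 13451 against 9484 in vehicle. The mitotic list was 2.33-fold higher in them in RP-6306 and 2.35-fold higher in vehicle. These folds are a description of these cells.

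**Figure D4:**
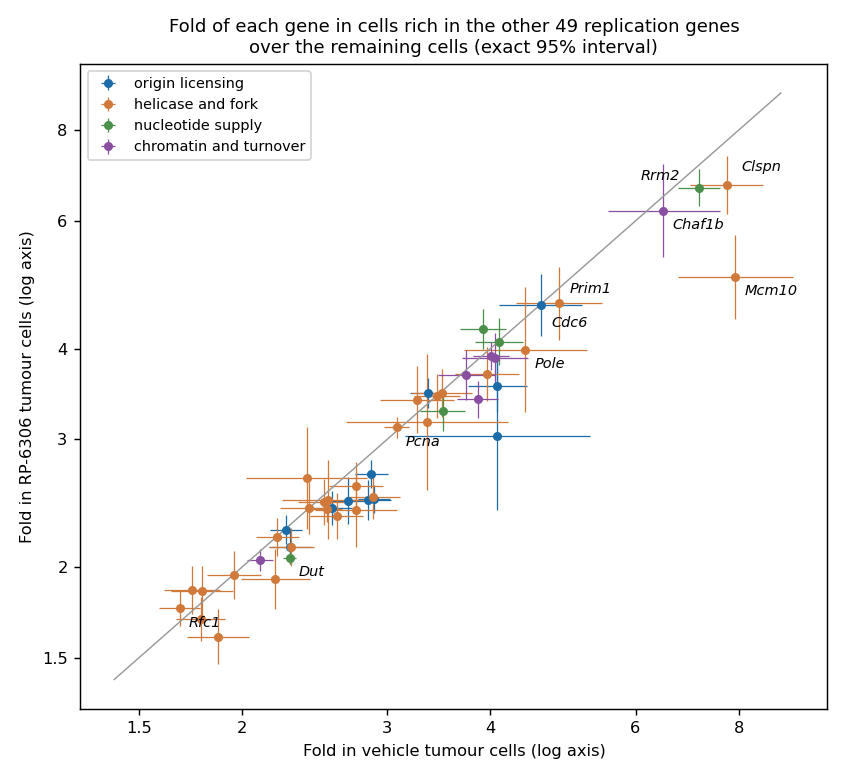
Fold of each replication gene in tumour cells rich in the other 49 over the remaining tumour cells, RP-6306 on the vertical and vehicle on the horizontal axis, both on log axes, with exact 95% intervals and a line of equal folds. Clspn, Rrm2 and Chaf1b lie at the top, Pola2, Rpa3 and Rfc1 at the bottom, and Mcm10 lies farthest below the line.

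Macrophages of the tumours also carried replication RNA, at a lower level than tumour cells. The 50 genes summed to 1829 CPM in macrophages against 2775 CPM in tumour cells of the RP-6306 library, and to 1945 CPM against 2794 CPM in the vehicle library. The macrophage level was 65.9% (63.2 to 68.7) in the RP-6306 library and 69.6% (66.9 to 72.4) in the vehicle library of that in tumour cells. Tumour genes outside the gate, Krt7, Krt19, Cldn4, Cldn7, Barx2 and Sox9 summed, stood at 6.20% (4.05 to 9.08) in the RP-6306 library and 6.12% (4.21 to 8.59) in the vehicle library, which gives a scale for free tumour RNA in these droplets. The macrophage gate allows at most 1 UMI of Krt8 and Krt18, and the part of free RNA or mixed droplets in the macrophage values was not tested. In the RP-6306 library 40 of the 50 genes were lower in macrophages than in tumour cells, and in the vehicle library 34. Among the 13932 genes with at least 100 UMIs over both classes, 61.3% were lower in macrophages in each library. By role, licensing genes stood at 83.9% (77.6 to 90.6) in the RP-6306 library and 82.9% (76.6 to 89.6) in the vehicle library, and helicase and fork genes at 77.4% (72.6 to 82.4) in the RP-6306 library and 83.5% (78.5 to 88.6) in the vehicle library. Nucleotide supply stood at 36.5% (32.7 to 40.7) in the RP-6306 library and 41.3% (37.3 to 45.6) in the vehicle library, and chromatin and turnover at 60.4% (53.6 to 67.9) in the RP-6306 library and 66.9% (59.6 to 74.9) in the vehicle library.

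Dut had the lowest such share in both libraries. It stood in macrophages at 23.8% (20.2 to 27.8) of the tumour-cell level in the RP-6306 library and 26.2% (22.6 to 30.3) in the vehicle library. Some fork and licensing genes stood higher in macrophages than in tumour cells of both libraries. Fen1 stood at 140.4% (106 to 182) of the tumour-cell level in the RP-6306 library and 166% (126 to 216) in the vehicle library, and Mcm5 at 153% (115 to 199) of the tumour-cell level in the RP-6306 library and 118% (85.9 to 158) in the vehicle library. Mcm10 stood at 143% (88.3 to 220.4) of the tumour-cell level in the RP-6306 library and 196% (125 to 294) in the vehicle library. The interval of Mcm5 in vehicle and that of Mcm10 in RP-6306 include equal levels.

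Few macrophages were rich in replication RNA. With each cell thinned to 1000 UMIs, at least 5 replication UMIs were found in 18 of 251 macrophages, 7.17% (4.31 to 11.1), against 15.9% (15.1 to 16.8) of tumour cells in the RP-6306 library. In the vehicle library they were found in 25 of 234 macrophages, 10.7% (7.03 to 15.4), against 16.01% (15.2 to 16.9) of tumour cells. These 18 and 25 cells held 34.5% and 44.8% of the replication UMIs of their class. They were picked by those same thinned UMIs, so the cut itself makes these shares large, and unevenness beyond counting error was not tested. Mitotic UMIs were found in 55.6% of these cells in RP-6306 and 80% in vehicle, against 26.2% and 26.3% of the remaining macrophages. Their Lyz2 level, 5785 CPM in RP-6306 and 5870 CPM in vehicle, was close to the 5552 CPM and 5875 CPM of all macrophages. Their Krt8 and Krt18 UMIs came to 12 in RP-6306 and 9 in vehicle.

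Between the libraries, no single replication gene differed in macrophages beyond counting error. Only 17 of the 50 genes were measured there, of which 6 were higher and 11 lower in RP-6306 macrophages, beside 50% in each direction among all 3668 measured genes. At the 0.2 limit 3 were higher and 3 lower, beside 19.1% and 19.6% of all measured genes, and the interval of the ratio included 1 for all 17, beside 7.93% above 1 and 7.66% below 1 among all measured genes. The sum over the 50 genes was 1829 CPM in RP-6306 and 1945 CPM in vehicle macrophages, a ratio of 0.940 (0.888 to 0.996), and nucleotide supply had 0.835 (0.719 to 0.969). The mitotic list was also lower in RP-6306 macrophages, at 1218 CPM in RP-6306 and 1421 CPM in vehicle, a ratio of 0.857 (0.800 to 0.918), with 10 of its 11 measured genes lower, and its part in the replication sum was not tested. Mcm5 had 46.1 CPM (34.9 to 59.8) in RP-6306 macrophages and 36.02 CPM (26.3 to 48.2) in vehicle macrophages, a ratio of 1.28 (0.851 to 1.94). Mcm2 had 45.3 CPM in RP-6306 and 36.02 CPM in vehicle, a ratio of 1.26 (0.834 to 1.91), and Mcm6 52.6 CPM in RP-6306 and 42.4 CPM in vehicle, a ratio of 1.24 (0.849 to 1.82). These 3 MCM genes were past the limit on the higher side. Mcm7, of the same ring, lay on the other side at 67.2 CPM in RP-6306 and 82.5 CPM in vehicle, a ratio of 0.815 (0.603 to 1.10). Slbp had 106 CPM in RP-6306 and 130.5 CPM in vehicle, a ratio of 0.812 (0.640 to 1.03), and Dut 125 CPM in RP-6306 and 146 CPM in vehicle, a ratio of 0.856 (0.687 to 1.07). Of the other abundant members, Pcna had 127 CPM in RP-6306 and 142 CPM in vehicle, Gmnn 98.7 CPM in RP-6306 and 87.3 CPM in vehicle and Mcm3 89.01 CPM in RP-6306 and 92.9 CPM in vehicle. Tipin had 59.1 CPM in RP-6306 and 66.4 CPM in vehicle, Tyms 46.1 CPM in RP-6306 and 49.6 CPM in vehicle and Uhrf1 44.5 CPM in RP-6306 and 45.6 CPM in vehicle, all with intervals of the ratio that included 1. At this depth a ratio such as that of Cdc6 in tumour cells would not have been detectable for a macrophage gene near the 100 UMI limit, since the interval of Mcm5, on 57 and 45 UMIs, runs from 0.851 to 1.94.

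**Figure D5:**
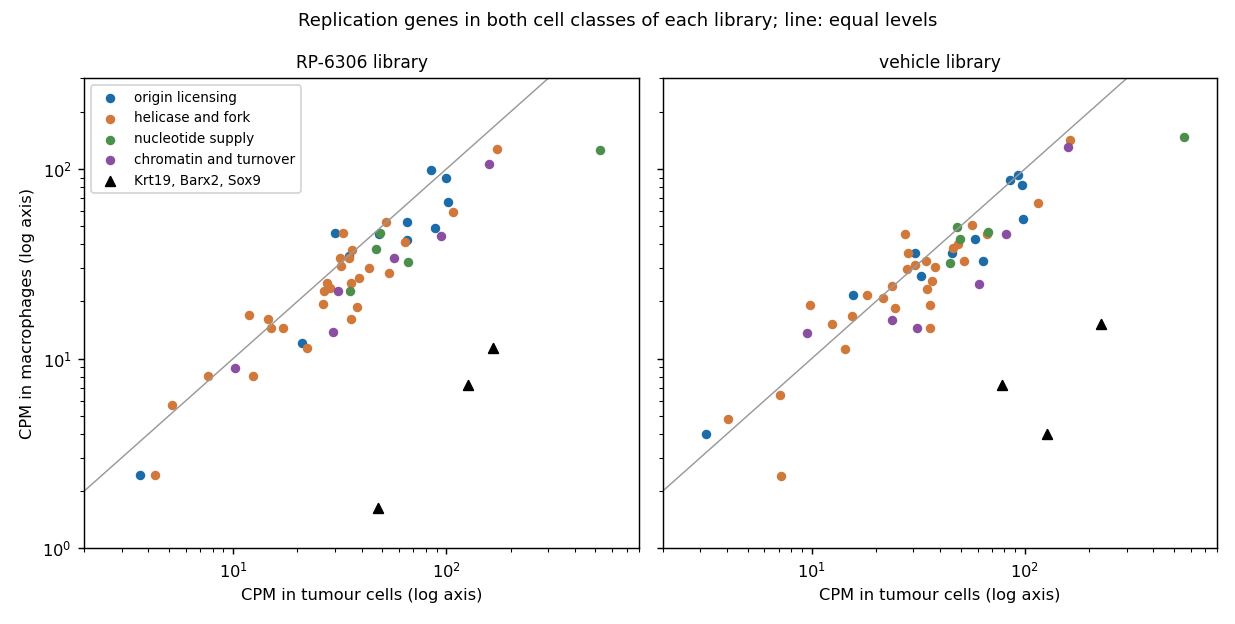
Level of each replication gene in macrophages, vertical, and in tumour cells, horizontal, in CPM on log axes, for the RP-6306 library on the left and the vehicle library on the right, with a line of equal levels. Most members lie on or somewhat below the line, Dut lies far below it, and the tumour genes Krt19, Barx2 and Sox9, drawn as triangles, lie lower still.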

How the data were processed

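The authors deposited 1 matrix per library of raw UMI counts per gene and barcode, not normalized, as its whole numbers show. The header of each matrix gives Cell Ranger 7.1.0 as its source, whereas Cell Ranger 2.1.1 and build mm10 stand in the submitters' processing notes. Libraries followed a 10x protocol that reads transcript ends, per the labels' protocols, so CPM counts molecules and is not scaled by length.

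Cells with at least 500 genes and at most 15% mitochondrial UMIs were kept (10308 RP-6306, 9540 vehicle). Scrublet in scanpy 1.11.5 (expected rate 0.08) called only 3 and 3 doublets automatically, which was taken as a failure, so cells above the 8% highest scores were removed (808 and 683), leaving 9500 and 8857. The libraries share 34 barcode sequences. Macrophages also needed at least 2 UMIs of C1qa, C1qb, C1qc, Csf1r, Adgre1 and Mrc1 summed, and at most 1 of Krt8 and Krt18. UMIs were summed per class and library. Levels have exact Poisson, shares exact binomial and ratios exact conditional intervals; log2 ratios use CPM + 1. Differences of shares use both binomial intervals (square-and-add). No test was run, since cells are not replicates. The summing, thinning and intervals were tested on simulated data.

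All 50 members could be named; full values were given for the most abundant 2 of each role and for those past a log2 ratio of 0.2, and at most 3 per direction of each wider list. The members, lists and cuts were chosen with earlier results of these data known. Gene positions are from GENCODE M21 on GRCm38, and all 50 identifiers matched. Alternatives covered scaling (TMM in edgeR 4.0.16), filters, gates, doublets, pseudocount and mitotic bins. Python 3.11.15, numpy 2.4.6 and scipy 1.17.1 were used.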

Additional observations from a re-analysis of the deposited data

How the results depend on the processing

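The 8 tumour-cell genes past a log2 ratio of 0.2 kept their direction under each gate, filter, scaling, doublet and pseudocount setting under which they were measured. Uhrf1 fell just under the limit with the mean of per-cell CPM, at 0.1998, which left 4 genes higher past 0.2 in place of 5. Sums and medians of the members lay close to no difference and moved with the settings; the cause was not tested. With TMM scaling the sum ratios were 1.005 for all members, 1.003 for helicase and fork and 0.955 for nucleotide supply, with medians of 0.015 for all members and 0.0097 for helicase and fork. With median-of-ratios scaling they were 1.02 for all members, 1.06 for licensing, 1.02 for helicase and fork, 0.968 for nucleotide supply and 1.07 for chromatin and turnover, with medians of 0.034, 0.11, 0.028, -0.044 and 0.076, and 34 members higher and 16 lower, beside 53.2% and 46.2% of all measured genes. With the mean of per-cell CPM the licensing median was 0.052, the nucleotide supply median -0.034 and its ratio 0.956. The median of all members was 0.012 without doublet removal and 0.012 with at least 6 keratin UMIs. A floor of 50 CPM left 7 higher and 9 lower members, 1 and 0 past 0.2, beside 42.8%, 57.2%, 4.31% and 7.28% of all genes at that floor, and medians of -0.0092, 0.047, -0.049, -0.052 and -0.0084 for all members and the role groups in the order above. Without Dut the ratio of all members was 1.01.

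Over the 4 mitotic bins the ratios were 1.09, 1.13, 1.08 and 0.970 for all members, 1.14, 1.18, 1.10 and 0.983 for licensing, 1.06, 1.12, 1.08 and 0.975 for helicase and fork, 1.07, 1.07, 1.01 and 0.927 for nucleotide supply and 1.08, 1.19, 1.19 and 1.03 for chromatin and turnover. With the bins weighted equally they were 1.06, 1.10, 1.06, 1.02 and 1.12. In 4 equal groups by each library's own ranks, chosen after seeing the data as was the sum without Dut, they were 1.08, 1.08, 0.931 and 0.976 for all members, 1.16, 1.12, 0.967 and 1.005 for licensing, 1.06, 1.06, 0.941 and 0.976 for helicase and fork, 1.08, 1.07, 0.854 and 0.924 for nucleotide supply and 1.02, 1.09, 0.993 and 1.05 for chromatin and turnover.

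In macrophages, with every gene of at least 1 UMI, 16 members were higher and 34 lower, beside 51.8% and 48.2% of all genes, and 13 and 21 were past 0.2, beside 32.7% and 35.9%. At that floor many genes rest on a few UMIs. With the 50 CPM floor 3 were higher and 7 lower, with 1 higher past 0.2, beside 50.4%, 49.6% and 19.7%. Past 0.2, 7 were lower without doublet removal, beside 20.1% of all genes, and 6 with the mean of per-cell CPM, beside 20.6%. Past 0.2, 5 were higher without the C1q, Csf1r, Adgre1 and Mrc1 limit, beside 18.8%, and 1 with at least 10 Lyz2 UMIs, beside 20.3%. The macrophage median was -0.00041 without that limit, and the licensing median -0.061 with the 50 CPM floor and -0.065 with at least 10 Lyz2 UMIs.

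No paired analysis was possible because each arm holds 1 library, and leaving a library out would leave no comparison. Counting limits the scarce genes Orc1, Gins3 and Pole in tumour cells and all members in macrophages. Of single-gene values under an alternative, 619 stayed within their counting interval and 5 moved past it, for Orc6, Pcna, Slbp and Dut, with scaling or with the mean of per-cell CPM.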
